A study of Mus musculus with 65 samples.

Results

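The genes described here are the enzymes of cholesterol synthesis from acetyl-CoA onwards, the proteins that sense sterols and set the level of those enzymes, and 4 proteins that carry, export or esterify cholesterol. They are a list of names: all 28 symbols were matched through the GENCODE annotation to a row of the count table, out of 31057 features. By role they are 8 genes of the mevalonate part of the pathway (Acat2, Hmgcs1, Mvk, Pmvk, Mvd, Idi1, Fdps, Ggps1), 3 that make squalene and lanosterol (Fdft1, Sqle, Lss), 9 that turn lanosterol into cholesterol (Cyp51, Tm7sf2, Msmo1, Nsdhl, Hsd17b7, Ebp, Sc5d, Dhcr7, Lbr), 4 regulators (Srebf2, Scap, Insig1, Insig2) and 4 transport and storage genes (Stard4, Npc1, Npc2, Soat1). The list applies no threshold to a measured value, but it was drawn up with earlier results of these data known.

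Poly(A) RNA was sequenced from primary neural stem cells (NSCs) of the subventricular zone, the adult mouse brain's largest stem cell region. All 15 groups, controls included, carried the genotype labelled iOSKM, a doxycycline-inducible reprogramming cassette. Young animals were 3 to 4 months old (5 animals) and old animals 25 months (4 animals), and every group holds 1 library from each animal of its age. Groups named A were kept in NSC medium, with EGF and bFGF, and groups named D in differentiation medium, which lacks both factors and was given 18 h after plating. The hours in the names (06, 18, 48) are those of the labels, which do not say from which event they count. Young animals gave untreated libraries at A18h, D06h, D18h and D48h and doxycycline libraries at A18h. Old animals gave the same groups and, in addition, doxycycline libraries at A06h, A48h, D06h, D18h and D48h. Doxycycline was given at 2 µg per ml. The table has no A06h or A48h group without doxycycline, so at those hours the media can be compared in doxycycline cells of old animals only. Separators of the reprogramming factors listed as features of their own (P2A, T2A and E2A) reached at most 2, 2 and 4 counts in any library, so induction of the cassette could not be read from them.

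Cells build cholesterol from acetyl-CoA through mevalonate, farnesyl diphosphate, squalene and lanosterol. When sterols in the endoplasmic reticulum run low, SCAP carries the membrane-bound transcription factor SREBP2 (encoded by Srebf2) to the Golgi, where proteases free its active part, which turns on the genes of the pathway. INSIG proteins hold SCAP back when sterols are plentiful, and Insig1 is itself an SREBP target, so its transcript is often read together with those of the enzymes. In the brain, which is shielded from lipoproteins of the blood, cholesterol is made locally, first by dividing progenitors, and later mainly by astrocytes and by oligodendrocytes making myelin.

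Total counts ran from 56.5 M to 116.8 M per library (M, mega), with a median of 86.7 M. Levels are given as counts-per-million (CPM) values, with TMM scaling over all libraries. Progenitor markers were high in every library (Sox2 216 to 382 CPM), and most markers of microglia and vessels were near 0. Of 6 microglia markers, Cx3cr1, Ptprc, Aif1 and Tmem119 stayed at or below 0.413 CPM in every library, while P2ry12 was at 0.136 to 3.10 CPM and Csf1r at 4.20 to 11.3 CPM. Of 6 vascular markers, Cldn5, Kcnj8, Pecam1 and Rgs5 stayed at or below 0.745 CPM, while Pdgfrb reached 7.22 CPM and Flt1 was at 0.289 to 20.6 CPM. Bulk RNA cannot tell fewer cells of a type from less RNA per cell, and this holds for each difference below. The replicates are separate animals.

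Promoter letters were searched because most of the enzymes moved together. RefSeq windows of 300 bases (250 before the start to 50 after it, build GRCm38.p6) were given for 23 of the 28 genes. The core sterol element TCACNCCAC, searched on both strands, was in 1 of the 23 windows (Hmgcs1), against 1.44% of the 27025 genes with a window. Only exact matches were counted, so a window without one may still hold a variant of the element. The letters CCAAT, the box bound by the SREBP partner NF-Y, were in 21 of 23 windows, against 41.1% of all genes, and the SP1 box GGGCGG was in 21 of 23, against 38.2%. These shares are over all genes with a window, expressed here or not. The genes holding both boxes included Npc2 and Soat1, whose levels ran opposite to the enzymes, and Insig2 and Tm7sf2, which changed little. The boxes thus did not set apart the genes that moved together. In the stretches printed here no match shares letters with another, and a match is a description only. Below are the bases upstream of the first annotated start of Hmgcs1 (chr13:119690101-119690350), the one window with an exact match to the sterol element. Added after their windows had been seen are those of Insig1 (chr5:28071162-28071362), the sterol sensor that followed the enzymes, and Srebf2 (chr15:82147019-82147180), the gene of the factor itself. All 3 lie on the plus strand. Capitals mark the sterol element, CCAAT and GGGCGG on either strand.
Hmgcs1: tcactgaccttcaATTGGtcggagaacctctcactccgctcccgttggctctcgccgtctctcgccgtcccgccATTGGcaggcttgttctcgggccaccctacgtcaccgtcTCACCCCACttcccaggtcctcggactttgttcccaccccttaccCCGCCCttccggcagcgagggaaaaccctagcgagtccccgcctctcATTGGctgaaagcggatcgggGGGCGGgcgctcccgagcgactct
Insig1: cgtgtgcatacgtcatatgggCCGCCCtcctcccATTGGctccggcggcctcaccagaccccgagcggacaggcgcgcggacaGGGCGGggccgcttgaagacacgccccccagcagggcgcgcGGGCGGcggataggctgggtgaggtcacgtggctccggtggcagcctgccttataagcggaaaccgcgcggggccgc
Srebf2: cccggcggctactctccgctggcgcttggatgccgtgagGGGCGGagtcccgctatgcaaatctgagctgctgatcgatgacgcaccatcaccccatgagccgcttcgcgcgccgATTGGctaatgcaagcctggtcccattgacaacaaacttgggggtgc
The Hmgcs1 stretch held 1 sterol element (TCACCCCAC), 3 CCAAT boxes and 2 GGGCGG boxes. The Insig1 stretch held 1 CCAAT and 3 GGGCGG boxes, and that of Srebf2 held 1 of each.

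Most of the 28 genes rose and fell as one block over the 15 groups, with a small set going the other way. In 22 of 28 genes the highest group mean was that of A06h doxycycline old, and in 15 the lowest was D18h untreated young. Per kilobase of exon, Hmgcs1, the synthase that commits acetyl groups to the pathway, was the most abundant at a mean of 229 CPM per kb, followed by Insig1 (51.6) and Srebf2 (49.9). Insig2, the second INSIG gene, was the lowest at 6.05 CPM per kb. The neighbours Insig1 and Srebf2 in that order, and the 4 lowest genes (Lbr 6.80, Hsd17b7 6.66, Ebp 6.39 and Insig2), lay close to each other, and their order was not tested.

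**Figure D1:**
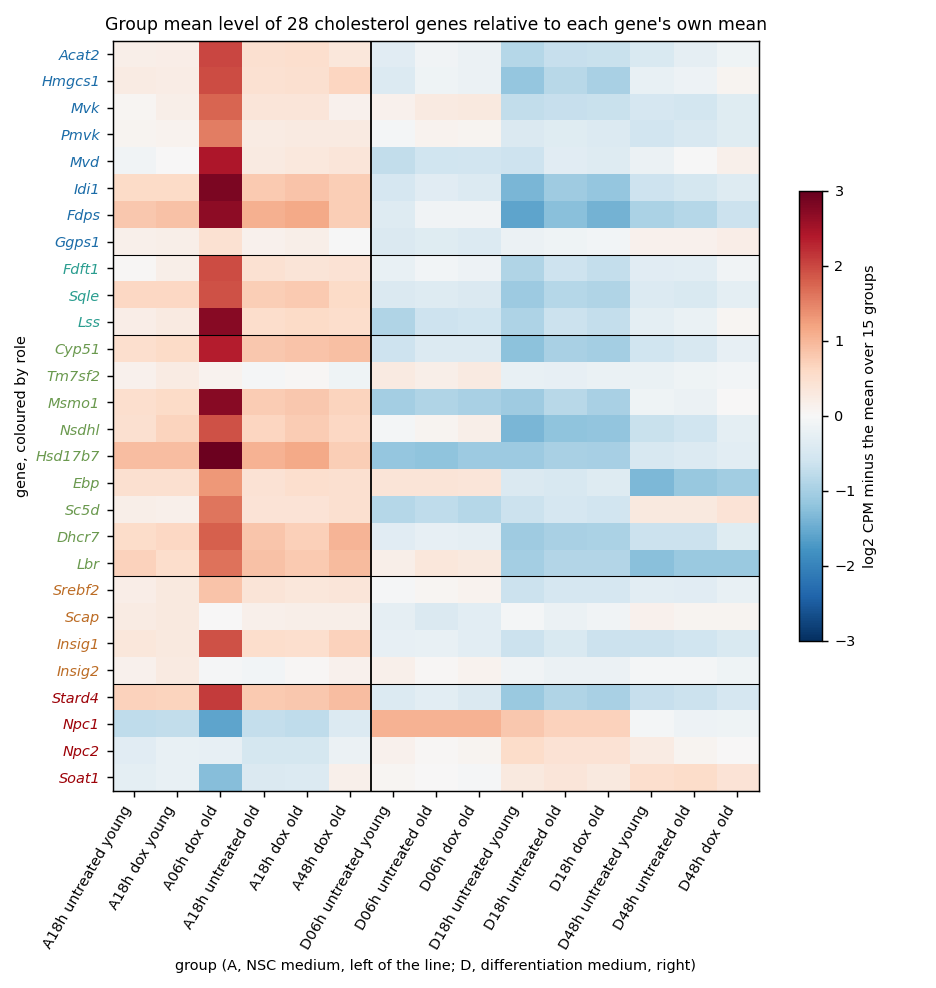
Heat map of group mean levels (columns, 15 groups; rows, 28 genes coloured by role), as log2 CPM minus each gene's own mean over the groups. The A06h column is high for 24 genes and low for Npc1 and Soat1, and the D18h columns are low for most enzymes.

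The range of group means set the genes apart. Fdps, which makes farnesyl diphosphate, spanned 32.6 to 625 CPM, 19.2-fold. Idi1, the isomerase just before it, spanned 16.2 to 295 CPM (18.2-fold), and Hsd17b7, a sterol reductase, 10.1 to 178 CPM (17.6-fold). The ranges of 4 genes were small: Scap 1.66-fold, Tm7sf2 1.44-fold, Insig2 1.37-fold and Ggps1, which sends farnesyl diphosphate away from sterols, 1.84-fold. Across the 15 group means, which share animals and libraries' depth, Pearson's r with the median of the other 27 genes was 0.99 for Sqle, Cyp51 and Stard4. It was -0.83 for Npc1, -0.81 for Npc2 and -0.90 for Soat1. By this measure the pattern of the synthesis genes ran opposite to that of lysosomal export and of esterification.

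The largest difference between groups named D and A of the same hour was at 06. Because differentiation medium came 18 h after plating and the zero point of the hours is not given, such groups may also differ in time since plating, which cannot be told apart from the medium in these comparisons. In old doxycycline cells, D06h against A06h, 23 of 28 genes were lower and 5 higher, with a median log2 fold change of -2.04 against 0.04 over all genes. That comparison called 39.3% of all 17014 genes tested lower and 41.4% higher, so calls as such were common and the size and shared direction are what the values show. At 18 h, 25 were lower and 3 higher (median -1.09; 40% and 41.4% of all genes), and at 48 h, 21 were lower and 4 higher (median -0.53; 37.1% and 39.8%). These 3 comparisons share no libraries with each other, but all come from the same 4 old animals, so they are not independent. At 18 h in these doxycycline cells the lowest log2 fold changes were those of Fdps (-2.53), Hsd17b7 (-2.08), Idi1 (-1.98), Nsdhl (-1.90) and Cyp51 (-1.85). Hmgcs1 had -1.43, Sqle -1.66, Lbr -1.64, Insig1 -1.12, Srebf2 -0.81, Tm7sf2 -0.18 and Insig2 -0.17 (adjusted p = 0.0117). The 3 higher genes were Npc1 (354 against 129 CPM), Npc2 (279 against 144 CPM) and Soat1 (129 against 80.4 CPM).

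Among the mevalonate genes, all 8 were lower at D06h than at A06h. Hmgcs1 was at 3449, 3646, 3647 and 3675 CPM in the 4 animals at A06h and at 782, 761, 855 and 875 CPM at D06h. The groups did not overlap, as for 76% of all genes. The log2 fold change was -2.10 (SE 0.05, adjusted p = 7.73e-12), a 4.29-fold lower level. Idi1 went from 284 to 307 CPM at A06h down to 29.0 to 33.6 CPM at D06h, a log2 fold change of -3.18 (SE 0.05, adjusted p = 3.86e-13). Mvd, which makes isopentenyl diphosphate, fell by 2.98 and Fdps by 2.74 on the log2 scale. Mvk and Pmvk, the kinases of mevalonate, fell less, each by 1.41, and Ggps1 by 0.84. At 48 h the same comparison gave Hmgcs1 a log2 fold change of -0.50 (984 against 1436 CPM), and Ggps1 was higher (0.27, SE 0.04, adjusted p = 5.95e-05). Mvd at 48 h (-0.18, adjusted p = 0.0488) was called, but the call ended without any 1 of 5 of the 8 libraries (A48h replicates 2, 3 and 4 and D48h replicates 1 and 4; adjusted p 0.0705 to 0.135).

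The squalene genes followed. Sqle, squalene epoxidase, a controlled step of the pathway, was at 668, 715, 672 and 666 CPM at A06h and at 133, 128, 134 and 139 CPM at D06h. All A06h libraries lay far above all D06h libraries, with a log2 fold change of -2.31 (SE 0.04, adjusted p = 1.11e-12). Lss, which closes squalene epoxide into lanosterol, fell by 3.28, from 603 to 60.5 CPM, and Fdft1, squalene synthase, by 2.06. At 48 h the 3 differences were smaller: -0.81 for Sqle, -0.43 for Lss and -0.51 for Fdft1, each still called.

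Of the 9 genes after lanosterol, 8 were lower and 1 higher at D06h. The largest differences were those of Hsd17b7 and Msmo1, which act in stripping methyl groups from the ring. Hsd17b7 was at 182, 174, 183 and 171 CPM at A06h and at 11.1, 10.6, 11.5 and 10.3 CPM at D06h. That is 15.9-fold lower (log2 -3.99, SE 0.05, adjusted p = 1.46e-13), the largest difference of the 28 genes in this comparison. Msmo1, the methyl sterol oxidase of that process, was 12.7-fold lower (53.1 against 691 CPM; log2 -3.67, SE 0.07), while Nsdhl, the third enzyme of that process, fell by 1.70, less than Cyp51, the lanosterol demethylase (-2.72). Sc5d and Dhcr7, late steps that set the ring's double bonds, fell by 2.42 and 2.02.

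Tm7sf2 and Lbr carry out the same reduction of the sterol ring, and they differed. Tm7sf2 was slightly higher at D06h than at A06h (84.1 against 74.7 CPM, log2 0.21, SE 0.05, adjusted p = 0.00111). Lbr, which is also a receptor for lamin B in the inner nuclear membrane, fell by 1.31. At D48h against A48h, Lbr had the largest difference of all 28 genes. It was at 51.2, 54.0, 48.7 and 53.4 CPM at A48h and at 12, 13.2, 12.2 and 12.4 CPM at D48h (log2 -2.02, SE 0.05, adjusted p = 1.32e-12). Ebp, the sterol isomerase, likewise had a larger difference at 48 h (-1.47) than at 6 h (-0.90), while Sc5d showed none that passed the test at 48 h (-0.01, SE 0.04, adjusted p = 0.796). The change of these differences with the hour was not tested. Tm7sf2 shares 12.1% of its exon bases with Vps51 on the same strand, and Fdps shares 26.7% with Gm43738, so reads there could count for either gene.

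**Figure D2:**
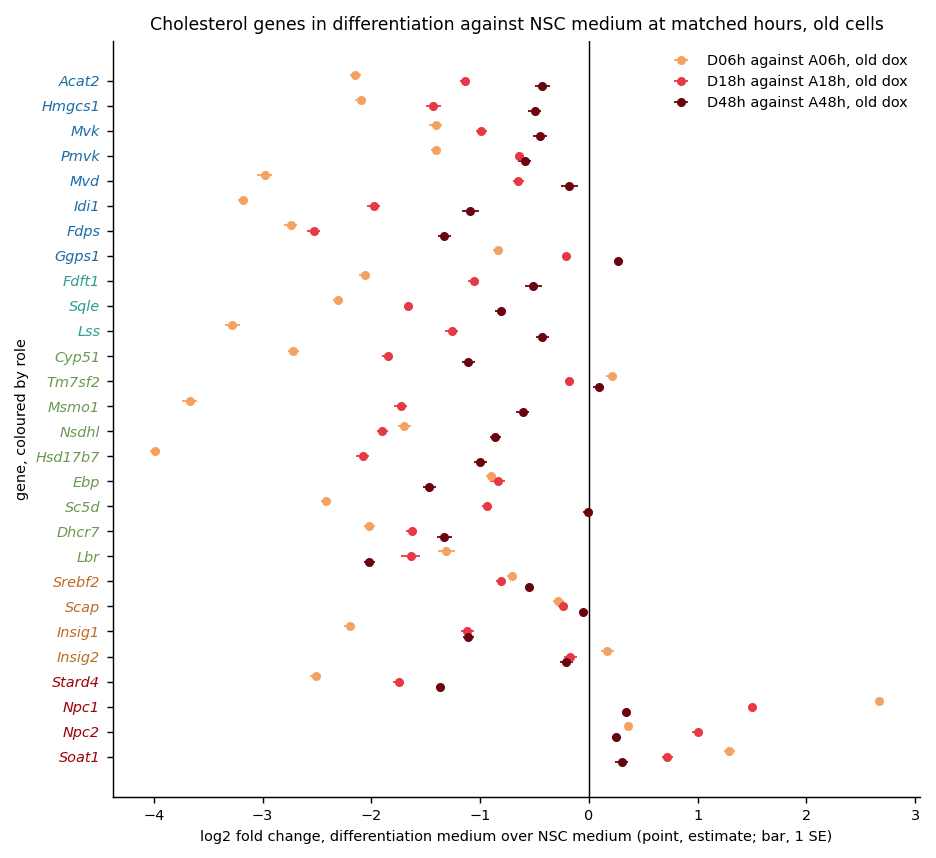
Log2 fold change of each of 28 genes in differentiation medium over NSC medium in old doxycycline cells (points, estimates; bars, 1 SE), at 6, 18 and 48 h. For most enzymes the points move towards 0 from 6 to 48 h, whereas Lbr and Ebp lie furthest from 0 at 48 h and Npc1 lies right of 0 at each hour.

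The regulators split. Insig1 was at 531, 561, 520 and 518 CPM at A06h and at 111, 113, 106 and 122 CPM at D06h. The groups were far apart (log2 -2.20, SE 0.05, adjusted p = 3.80e-12), a difference of the size of that of Hmgcs1. Srebf2 moved in the same direction by less, 629 against 375 CPM (-0.71, SE 0.04, adjusted p = 1.82e-08), and Scap, the escort protein, by -0.28. Insig2 was at 18.7 to 21.9 CPM at A06h and at 21.1 to 24.2 CPM at D06h, overlapping ranges. Its call (0.17, adjusted p = 0.0213) ended without any 1 of 4 of the 8 libraries (A06h replicates 1 and 4, D06h replicates 1 and 3; adjusted p 0.0534 to 0.0827). At 48 h Insig1 was still lower in differentiation medium (-1.11, 102 against 227 CPM), and Scap showed no difference that passed the test (-0.05, adjusted p = 0.280).

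The transport genes went the other way, except Stard4. Npc1, the membrane protein that exports cholesterol from lysosomes, was at 69.7, 76.7, 70.6 and 72.8 CPM at A06h and at 464, 436, 446 and 457 CPM at D06h. Every D06h library was above every A06h library, by 6.38-fold (log2 2.67, SE 0.04, adjusted p = 3.16e-13). Npc2, the soluble lysosomal protein that hands cholesterol to NPC1, rose less (217 against 173 CPM, log2 0.36, SE 0.03). Soat1, which esterifies cholesterol for storage, was 2.44-fold higher (104 against 43.7 CPM, adjusted p = 4.37e-10). Stard4, a sterol carrier of the cytosol, was lower like the enzymes (-2.51, 52.3 against 305 CPM). At 48 h the differences of Npc1, Npc2 and Soat1 were 0.34, 0.25 and 0.30, each called, and that of Stard4 was -1.37.

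**Figure D3:**
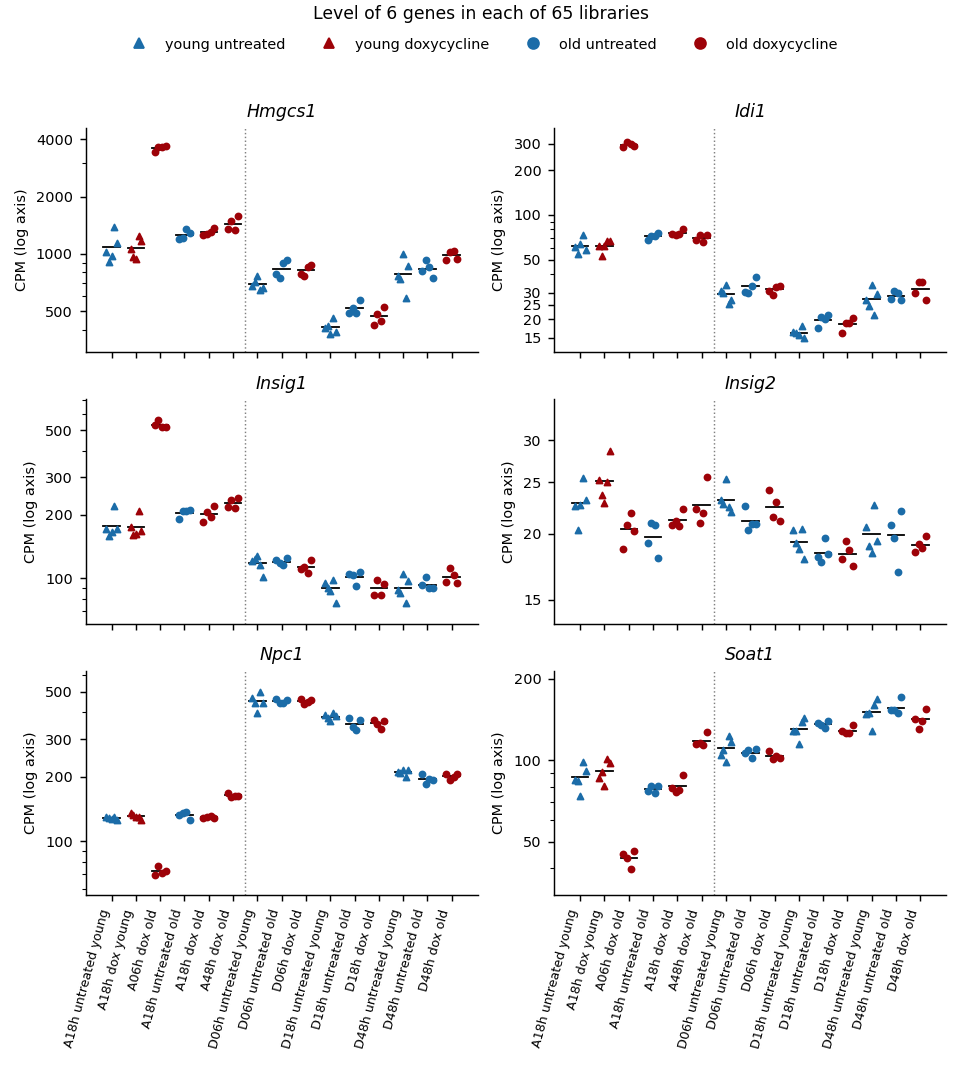
Level of 6 genes in each of 65 libraries (points; CPM on a log axis; bars, group means; dotted line, change from NSC to differentiation medium), by group. Hmgcs1, Idi1 and Insig1 peak at A06h, where Npc1 and Soat1 are lowest, and Insig2 stays between 16.9 and 28.7 CPM.

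Untreated cells could be compared at 18 h, and both ages gave a like picture there. In young cells, D18h against A18h, 25 genes were lower and 3 higher (median -0.91; 40.3% and 42.3% of all genes). In old cells 24 were lower and 3 higher (median -1.02; 40.5% and 41.5%). Fdps had the largest fall at both ages: young cells went from 153, 138, 166, 205 and 195 CPM at A18h to 31.9, 33.3, 33.3, 33.5 and 30.8 CPM at D18h (log2 -2.34, SE 0.10, adjusted p = 4.64e-10). Its old libraries went from 191 to 217 CPM down to 40.3 to 42.2 CPM (-2.28, SE 0.04). No library of one medium reached the range of the other. Sqle had -1.68 in young and -1.55 in old cells, Lbr -1.67 and -1.73, and Hmgcs1 -1.35 and -1.23. The regulators Insig1 (-0.93 and -0.95) and Srebf2 (-0.79 and -0.85) fell at both ages, as did Tm7sf2 by less (-0.30 and -0.16). Npc1 rose to 382 CPM from 128 in young cells (1.63, SE 0.03) and to 354 from 132 in old cells (1.47, SE 0.04). Npc2 (0.94 and 1.01) and Soat1 (0.65 and 0.84) were the other 2 higher genes. Insig2 was lower in young cells (-0.19, adjusted p = 0.00903, overlapping groups) and was not called in old cells (-0.06, adjusted p = 0.417).

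Other genes of sterol and lipid handling, from lists drawn up for this comparison, were read beside these. The share of all genes called at D06h against A06h was 41.4% higher and 39.3% lower, against which these counts stand. In that comparison 9 of 9 tested genes of sterol efflux and oxysterol formation were higher. Abca1, which loads cholesterol onto apolipoproteins, was at 296 against 4.27 CPM (log2 6.17, SE 0.28), and Abcg1, an exporter of the same system, at 16.7 against 0.123 CPM (7.11, SE 0.11). Of 9 fatty acid synthesis genes, 6 were lower and 3 higher, Elovl6, a fatty acid elongase, by -1.68. Of 8 genes that process or degrade SREBP and the INSIG proteins, 6 were lower and 1 higher: Erlin1 had -1.49, Mbtps2, a protease that frees SREBP, -1.33, and Srebf1, whose products drive lipid synthesis, 0.95. Of 14 receptor and lysosome genes, 8 were higher and 5 lower, among them Tmem97, a sterol-regulated membrane protein, at -2.52. Of 11 genes of isoprenoid side branches, 8 were lower and 1 higher, led by Pdss1 (-2.18), which makes the tail of ubiquinone.

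Cell type markers moved with the medium too. The summed level of 8 astrocyte markers was 1165 to 1305 CPM at A06h and 2972 to 3367 CPM at D06h in these old doxycycline cells, and 8152 to 9114 CPM at D48h. That of 12 oligodendrocyte lineage markers was 1382 to 1567, 4198 to 4512 and 7506 to 10023 CPM in the same groups, with Mog at 0.777 CPM or below in every library. The 6 cell cycle markers summed to 928 to 1240 CPM at A06h, 1297 to 1600 CPM at D06h and 29.9 to 39.8 CPM at D48h. Of those 6, 2 were called higher and 2 lower at D06h against A06h. The part of cell type and cell cycle in the differences was not tested.

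Within differentiation medium the untreated cells passed through a trough at D18h. From A18h to D06h, 20 genes were lower and 3 higher in young cells (median -0.53; 36.5% and 38.4% of all genes) and 20 lower and 4 higher in old cells (-0.55; 37.4% and 38.2%). From D06h to D18h, 19 were lower and 5 higher in young cells (-0.51; 32.4% and 34%) and 19 lower and 7 higher in old cells (-0.47; 33.6% and 34.1%). From D18h to D48h the direction turned: 19 were higher and 5 lower in young cells (0.40; 27.7% and 29.2%) and 20 higher and 6 lower in old cells (0.27; 28% and 28.5%). Consecutive steps share the libraries of the group between them, so a group that is low by chance would appear in both.

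Hmgcs1 shows the course. In young animals 1 to 5 it was at 1028, 911, 973, 1378 and 1137 CPM at A18h, at 674, 708, 766, 644 and 663 CPM at D06h, at 407, 420, 380, 460 and 389 CPM at D18h and at 762, 737, 993, 584 and 864 CPM at D48h. No 2 consecutive groups overlapped, which was so for 63.1%, 53.5% and 42.4% of all genes at the 3 steps. The log2 fold changes were -0.62 (SE 0.10), -0.75 (SE 0.06) and 0.92 (SE 0.12), with adjusted p = 8.07e-05, 4.55e-08 and 5.24e-05. In old cells they were -0.56, -0.69 and 0.67. Young animal 4 had the highest level at A18h and D18h and the lowest at D06h and D48h.

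The 3 methyl-removing enzymes differed in timing. Hsd17b7 and Msmo1 made their whole fall by D06h in young cells (-2.07 and -1.49) and gave no called change from D06h to D18h (0.08, adjusted p = 0.309, and -0.06, adjusted p = 0.485). Nsdhl fell by 0.50 first and then by 1.32, from 50.7 to 55.9 CPM at D06h down to 19.9 to 23.2 CPM at D18h. Lbr and Ebp kept falling: Lbr by 0.49, 1.20 and 0.25 over the 3 steps, and Ebp by 0.81 and 0.94 over the last steps after no called change at the first (-0.07, adjusted p = 0.361). Cell cycle markers summed to 1274 to 1600 CPM at D06h and to 41.8 to 73.0 CPM at D18h in the same young cells, between which Lbr, Nsdhl and Ebp fell. Whether that fall has a part in theirs was not tested.

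Sc5d rose again by D48h, whereas Insig1 gave no called rise at either age. In young cells Sc5d, the desaturase, was at 95.3, 90.3, 94.7, 113 and 98.7 CPM at A18h, at 56.7, 56.9, 53.4, 57.5 and 56.7 CPM at D18h and at 105, 106, 117, 91.8 and 116 CPM at D48h. All D18h libraries lay below all of A18h and D48h and above those of D06h (44.6 to 50.7 CPM), and the step to D48h was 0.91 (SE 0.06, adjusted p = 2.57e-08). Insig1 was at 76.2 to 98.2 CPM at D18h and at 76.4 to 105 CPM at D48h, with no called change (-0.01, SE 0.09, adjusted p = 0.928). In old cells its step was -0.14 (adjusted p = 0.0324), a call that ended without any 1 of 6 of the 8 libraries (D18h replicates 1, 2 and 4 and D48h replicates 1, 3 and 4; adjusted p 0.0664 to 0.0989). Insig2 gave no called change at either age (0.03 and 0.09). Srebf2 rose at both ages (0.29 and 0.16).

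Lysosomal export had its peak at D06h for Npc1 and at D18h for Npc2. Npc1 in young cells was at 126 to 130 CPM at A18h, at 398 to 500 CPM at D06h, at 364 to 397 CPM at D18h and at 200 to 215 CPM at D48h. The first step was up (1.85, SE 0.05), and the later ones were down (-0.24 and -0.88). Npc2 rose by 0.50 and 0.42 on the log2 scale and then fell by 0.33. Soat1 was highest at D48h, at 128 to 169 CPM in young cells and 149 to 171 CPM in old cells. Its rise from D18h to D48h was 0.19 at both ages. In young cells that call (adjusted p = 0.0440) ended without any 1 of 7 of the 10 libraries (D18h replicates 1, 2 and 3 and D48h replicates 1, 2, 4 and 5; adjusted p 0.0608 to 0.103), and in old cells it held (adjusted p = 0.00184).

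In NSC medium itself the enzymes fell from A06h to A18h and moved less after that. The A06h and A18h libraries used here also stand in the comparisons of media at those hours, so the values are not independent of those. In old doxycycline cells, A18h against A06h, 23 genes were lower and 3 higher (median -1.22 against 0.00 over all genes; 30.7% and 30.6% of all genes). Lss fell by 2.13, Mvd by 2.11, Idi1 by 1.95, Msmo1 by 1.91 and Hsd17b7 by 1.79. Hmgcs1 fell by 1.46, Insig1 by 1.39, Sqle by 1.11, Lbr by 0.82 and Srebf2 by 0.50. Npc1 rose by 0.85, from 69.7 to 76.7 CPM up to 128 to 131 CPM, Soat1 by 0.89 and Scap by 0.19. Npc2 went down (-0.26, SE 0.03), apart from Npc1, and Tm7sf2 and Insig2 were not called (-0.06 and 0.07). From A18h to A48h, 7 were higher and 6 lower (median 0.04; 26.0% and 26.3% of all genes). Soat1 rose by 0.57, Npc1 by 0.36, Npc2 by 0.35 and Dhcr7 by 0.32, and Fdps fell by 0.39 and Hsd17b7 by 0.37. Insig1 was higher (0.19, adjusted p = 0.00653), as was Hmgcs1 (0.17, adjusted p = 0.0180), whose call ended without A48h replicate 2 or 4 (adjusted p 0.0505 and 0.0583). Sqle (-0.21) and Tm7sf2 (-0.14) were lower, and Insig2 (0.12), Srebf2 (0.04) and Lbr (0.17) were not called. With the animal as a block 17 were called, 8 higher and 9 lower (28.6% and 28.6% of all genes), with Acat2, Idi1 and Nsdhl added as lower and Lbr as higher (adjusted p 0.0102, 0.0359, 0.0114 and 0.00973). Beside the step from A06h to A18h, 7 of 8 astrocyte markers, 7 of 11 oligodendrocyte lineage markers and 2 of 2 ependymal markers tested were higher and 1, 1 and 0 lower, and 3 of 6 cell cycle markers were higher and 1 lower. From A18h to A48h 6 of 8, 8 of 11 and 1 of 2 were higher and 0, 1 and 0 lower, and 4 of 6 cell cycle markers were higher. The part of these cells was not tested. Because A06h has no untreated group and the zero point of the hours is not given, effects of the hour, of recent plating and of doxycycline on the level there cannot be told apart.

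Doxycycline against untreated cells of the same medium and hour called none of the 28 genes in any of 5 comparisons by edgeR, where 0.0361% (young A18h), 0.0180% (old A18h), 0.0294% (D06h), 0.0118% (D18h) and 0.0296% (D48h) of all genes were called. At an unadjusted p under 0.05 the counts were 0, 3, 2, 4 and 16 of 28. Over all genes tested (16621 to 17726 a comparison) they were 2403, 1466, 1507, 1137 and 1492. DESeq2 called 0, 0, 0, 0 and 2, against 1.69%, 0.901%, 0.590%, 0.282% and 0.578% of all genes. Treated and untreated libraries of a group pair come from the same animals. With the animal as a block, 7, 6, 1, 3 and 12 genes were called, against 13.6%, 11.2%, 3.67%, 0.883% and 4.15% of all genes.

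The largest of these counts was at D48h in old cells, where 11 genes were higher and 1 lower with blocks, against 2.13% and 2.02% of all genes. Hmgcs1 was at 809, 928, 850 and 746 CPM in untreated cells of animals 1 to 4 and at 933, 1023, 1033 and 944 CPM in their doxycycline cells. Each animal was higher with doxycycline, by 1.10 to 1.27 times, and the groups just failed to overlap, as for 5.17% of all genes. The blocked log2 fold change was 0.23 (SE 0.04, adjusted p = 0.00360), against an adjusted p of 0.374 without blocks. Nsdhl was at 38.0, 37.5, 37.8 and 31.5 CPM untreated and at 43.6, 47.5, 46.4 and 42.0 CPM with doxycycline (0.30, SE 0.04, adjusted p = 6.13e-04). Dhcr7 (0.28), Lss (0.24), Cyp51 (0.22), Fdps (0.20), Fdft1 (0.19), Mvk (0.18), Msmo1 (0.17), Sqle (0.16) and Sc5d (0.11, adjusted p = 0.0481) were the others, each higher in 4 of 4 animals. Soat1, the esterifying enzyme, was lower in 4 of 4 (0.86 to 0.94 times; blocked -0.16, adjusted p = 0.0190). Insig1, Srebf2 and Stard4 were also higher in 4 of 4 animals, with blocked adjusted p of 0.0921, 0.0825 and 0.0636. So were Pmvk, Mvd and Idi1, with blocked adjusted p of 0.239, 0.0595 and 0.0932. The share of all genes with 4 of 4 animals in the same direction is not given.

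**Figure D4:**
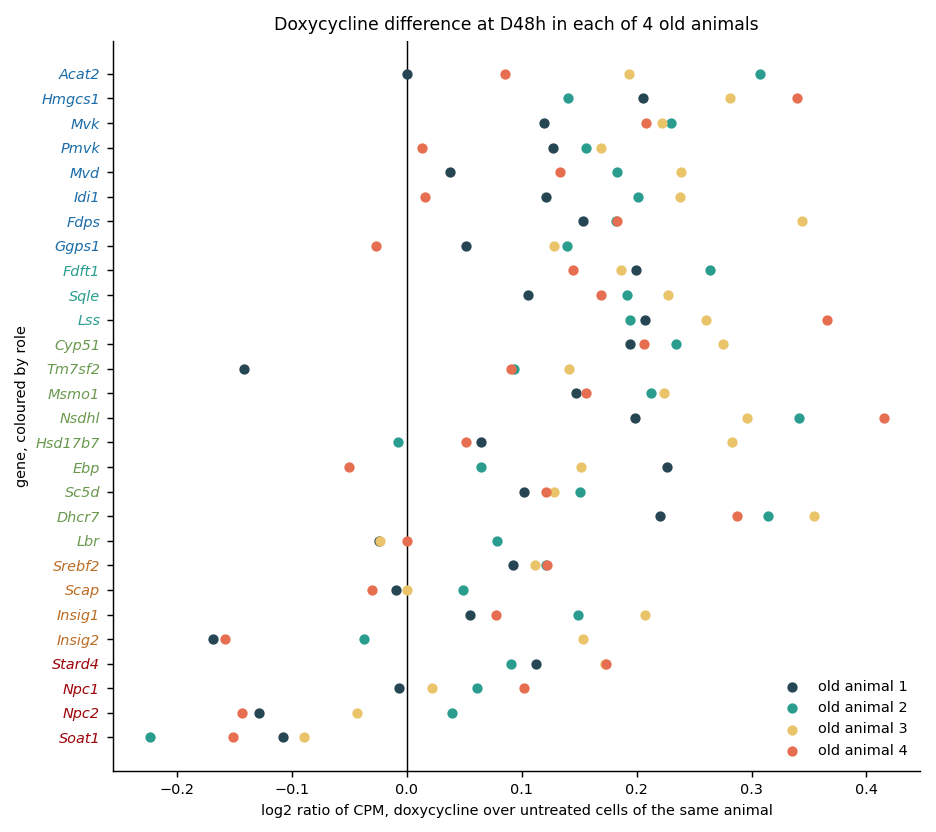
Log2 ratio of CPM, doxycycline over untreated cells of the same animal at D48h, for 28 genes (points, 4 old animals, some of which coincide). Most enzymes lie right of 0 in each animal, and Soat1 lies left of 0 in each.

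Beside these values, 7 of 12 oligodendrocyte lineage markers were higher and 4 of 8 astrocyte markers lower with doxycycline at D48h in the blocked fit. Their sums were 7506 to 10023 CPM against 6803 to 8514 CPM, and 8152 to 9114 CPM against 9038 to 10472 CPM, in treated and untreated cells. Of 9 fatty acid genes 2 were higher, and 2 of 8 tested efflux genes were lower. The part of these cell types in the differences was not tested.

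At D18h the blocked calls went down: Hmgcs1 by -0.16 (adjusted p = 0.0149), Fdps by -0.19 (0.0446) and Insig1 by -0.19 (0.0161), against 0.394% of all genes lower. Hmgcs1 was at 487, 522, 491 and 574 CPM untreated and at 421, 483, 443 and 529 CPM with doxycycline, ranges that overlap, with each animal lower. Beside these, 7 of 11 oligodendrocyte lineage markers were higher and 3 of 8 astrocyte markers lower with blocks, and their part was not tested. Sqle (-0.07), Soat1 (-0.09) and Tm7sf2 (0.05) were not called with blocks. At D06h only Scap was called with blocks (0.11, adjusted p = 0.0409; 1.69% of all genes were higher), beside 4 of 6 cell cycle markers lower and 4 of 11 oligodendrocyte lineage markers higher, whose part was not tested. At A18h, 6 genes were higher and 1 lower in young cells (6.85% and 6.74% of all genes) and 5 higher and 1 lower in old cells (4.18% and 7.01%). Nsdhl was higher at both ages (0.20, adjusted p = 0.00144, and 0.10, adjusted p = 0.00930), as was Tm7sf2 (0.10 and 0.08). Lbr was the lower gene in young cells (-0.16, adjusted p = 0.00351) and Dhcr7 in old cells (-0.11, adjusted p = 0.00157). Cell cycle markers were lower with doxycycline at A18h in the blocked fits, 6 of 6 in young and 5 of 6 in old cells. Astrocyte markers were lower in 6 of 8 in old cells, and 1 was higher and 1 lower of 8 in young cells. The part of either was not tested. The change of the doxycycline difference in old cells between A18h and D18h gave no call among the 28 genes in any fit. The shares of all genes called were 0.00566% by edgeR without blocks, 0.102% with blocks and 0.852% by DESeq2. Without blocks 5 of the 28 genes and 1768 of all genes tested had an unadjusted p under 0.05.

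Age was compared between untreated cells of different animals. The number of genes called differed by hour: 4 higher in old cells and 1 lower at A18h (3.09% and 2.86% of all genes), 1 higher at D06h (0.71%), 10 higher and none lower at D18h (2.85% and 2.34%), and 1 higher and 1 lower at D48h (5.63% and 5.02%). In each, 21 or 22 of the 28 estimates were above 0, though 23, 27, 18 and 26 of the 28 were not called. Their medians were 0.17, 0.09, 0.15 and 0.07, against -0.01 to 0.00 over all genes. The 4 hours share the same animals and most of the genes move together, so neither hours nor genes count as independent.

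At D18h the genes higher in old cells were Hmgcs1, Fdps, Idi1, Mvd, Fdft1, Lss, Cyp51, Sqle, Stard4 and Sc5d, by 0.15 to 0.35 on the log2 scale. Hmgcs1 was at 407, 420, 380, 460 and 389 CPM in young cells and at 487, 522, 491 and 574 CPM in old cells. The groups did not overlap, as for 7.80% of all genes (0.35, SE 0.06, adjusted p = 0.00500). Fdps was at 30.8 to 33.5 CPM in young and 40.3 to 42.2 CPM in old cells (0.35, SE 0.04, adjusted p = 7.29e-04). Sqle was at 81.4 to 89.2 CPM against 95.4 to 103 CPM (0.26, SE 0.04, adjusted p = 0.00218), again without overlap. For Idi1 and Fdft1 the groups overlapped. Insig1 (0.20, adjusted p = 0.0860), Srebf2 (0.14, adjusted p = 0.0814) and Npc1 (-0.09, adjusted p = 0.197) were not called. Leaving out 1 library gave 7 to 12 calls. The other 7 genes kept their call without each of the 9 libraries, while Idi1 lost it without old replicate 2, 3 or 4 (adjusted p 0.0566 to 0.0734), and Sc5d and Stard4 without old replicate 2 or 4 or young replicate 1 (0.0633 to 0.0940 and 0.0632 to 0.0743). Elovl6, a fatty acid elongase, and Lrp8, a lipoprotein receptor, were also higher in old cells (0.18 and 0.22), and Lipa, a lysosomal lipase, was lower (-0.19). Among markers 1 of the oligodendrocyte lineage and 1 of neuroblasts were higher and 1 of progenitors lower in old cells, whose part was not tested.

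**Figure D5:**
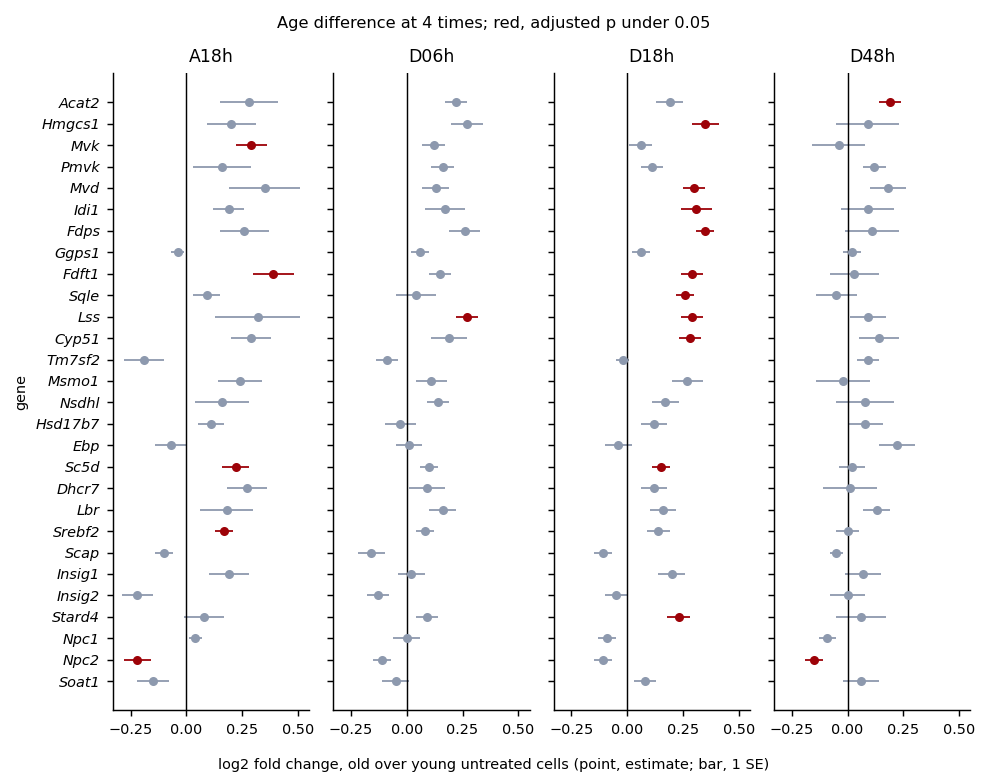
Log2 fold change, old over young untreated cells, of 28 genes at 4 hours (points, estimates; bars, 1 SE; red, adjusted p under 0.05). The D18h panel holds 10 red points, all right of 0, and most points of each panel lie right of 0.

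Each call at the other hours ended when any 1 of several libraries was left out. At A18h Fdft1 (0.39), Mvk (0.29), Sc5d (0.22) and Srebf2 (0.17) were higher and Npc2 (-0.22) was lower in old cells. Srebf2 was at 382, 386, 386, 420 and 412 CPM in young and at 447, 460, 458 and 438 CPM in old cells, without overlap (adjusted p = 0.0272). Calls of Fdft1, Mvk, Sc5d, Srebf2 and Npc2 ended without 5, 6, 8, 5 and 7 of the 9 libraries, with adjusted p of 0.0511 to 0.123. Without old replicate 3 or young replicate 1 none of the 28 genes was called, and without young replicate 4, 13 were called, all higher. Young replicate 4 had the highest level of its group for several of the enzymes, and the part of this was not tested. The count was 1 without old replicate 2, old replicate 4 or young replicate 3, 2 without old replicate 1 or young replicate 2, and 4 without young replicate 5. At D06h the call of Lss (59.3 against 48.9 CPM; 0.27, adjusted p = 0.0179) ended without old replicate 3 or 4 or young replicate 1 (0.0621 to 0.0860), and 4 genes were called without young replicate 3. At D48h Acat2 was higher (0.19, adjusted p = 0.0252) and Npc2 lower (-0.15, adjusted p = 0.0381) in old cells. Neither was called without old replicate 2 or 3 or young replicate 1, 1 was called without old replicate 4 or young replicate 5, and 3 were called without young replicate 3. The share of all genes called with a library left out is not given, at these hours or at D18h. The counts of such runs are therefore not read as particular to the 28 genes.

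The difference between ages did not itself change with the hour past the threshold. The change of age difference from A18h to D06h, from D06h to D18h and from D18h to D48h called none of the 28 genes by edgeR with or without animal blocks, or by DESeq2, against 0.0454%, 0% and 0% of all genes without blocks, 0.165%, 0.0113% and 0.334% with blocks and 0.0891%, 0.00404% and 0.389% by DESeq2. At an unadjusted p under 0.05 the counts without blocks were 1, 1 and 3 of 28. Over all genes tested they were 1185 of 17619 from A18h to D06h and 1222 of 17648 from D18h to D48h, with a lower count from D06h to D18h. The 10 calls at D18h against 1 or 2 at the neighbouring hours are thus not shown to be a difference between hours. The doxycycline difference at A18h was compared between ages in the same way. None of the 28 genes was called by edgeR without blocks (0% of all genes) or by DESeq2 (0.0122%). At an unadjusted p under 0.05 the count without blocks was 1 of the 28, and 1516 over all genes tested. With blocks Fdft1 (-0.19, adjusted p = 0.0437), Dhcr7 (-0.18, adjusted p = 0.0339) and Srebf2 (-0.12, adjusted p = 0.0462) had a lower difference in old cells, against 3.43% of all genes called and 2.03% lower.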

How the data were processed

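Poly(A) RNA of 65 libraries was measured. The authors deposited whole-number counts per gene, and variance-stabilised values on a log2 scale made from them, per the file headers and the submitters' processing notes. Build mm10 is named there, with STAR 2.7.10b, Subread, SAMtools, DESeq2 1.40.1 and Trim Galore 0.6.6. Counter settings, strand included, are not given in the sources used here. The libraries hold 75644 values of 2 and 19963 of 1, and why 2 is the more frequent was not tested. No 2 libraries were identical, and the labels name each replicate as a separate animal. GENCODE M21 named 31011 of the 31057 features.

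Each comparison took only its 2 groups' counts. In R 4.3.3, edgeR 4.0.16 scaled them by TMM, dropped low genes (filterByExpr, minimum 10) and fitted its quasi-likelihood model in robust form, with Benjamini-Hochberg adjustment over the 16621 to 17726 genes tested, and calls at an adjusted p under 0.05. The 5 interactions used all groups involved. SE, the standard error of a log2 fold change, was taken as its size over the square root of the quasi-likelihood F statistic. The script was tested on simulated counts. The lowest group mean of any of the 28 genes was 5.19 CPM, at totals of 56.5 M counts or more.

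Within an age, replicate numbers name the same animal in the labels. Over 18 comparisons and 14145 genes, deviations from the group mean correlated at medians of 0.43 to 0.72 for libraries of the same animal (lowest pair 0.21). Those of different animals correlated at -0.16 or below. Deviations cancel out within a group, so the negative values follow from the positive ones and are no separate contrast. The animal as a block was an alternative fit. Others were RLE size factors, no filter, DESeq2 1.42.0, limma 3.58.1 on the deposited log2 values, sex as a covariate for age, and each library left out in turn. The 28 genes were picked by symbol with no threshold on a value, and they, the lists and the tests were chosen with earlier results of these data known. All 28 genes could be named. The rule for naming genes in a comparison took those called with the largest changes (up to 5 a direction) and Hmgcs1, Sqle, Insig1, Insig2, Srebf2, Npc1, Npc2, Soat1, Tm7sf2 and Lbr. In the time course, doxycycline and age comparisons the text gives only some of these. Genes of other lists are among the 3 largest changes of their list. Fdft1 (18.3% of exon bases, Ctsb) and Hmgcs1 (12.1%, Gm48342) overlap genes of the other strand. A row of the table that no gene annotation named (46 features) was kept in library totals.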

Additional observations from a re-analysis of the deposited data

Results flagged for a closer look

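Single libraries that stood apart from their group were looked for in the 10 genes always named, in 150 sets of 4 or 5 libraries. By Dixon's test at the 95% level 9 of them (6%) held one, and 21 of 420 (5%) over all 28 genes, where chance gives about 1 in 20. Insig1 was highest in animal 4 of the young A18h groups, at 219 CPM untreated (159 to 171 in the others) and at 207 CPM with doxycycline (161 to 174), and the same doxycycline library had the highest Srebf2, 449 CPM (409 to 418). Sqle was lowest in replicate 2 of young A18h doxycycline, at 250 CPM (280 to 289). Insig1 was lowest in replicate 1 of old A18h untreated, at 191 CPM (207 to 210). At A06h Hmgcs1 was lowest in replicate 1, at 3449 CPM (3646 to 3675), and Sqle highest in replicate 2, at 715 CPM (666 to 672). Soat1 was highest in replicate 4 of old doxycycline cells at A48h, 127 CPM (114 to 116), and at D18h, 135 CPM (126 to 128).

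The doxycycline difference at A18h differed between ages for 3 genes in the fit with animal blocks, being lower in old cells: Fdft1 by -0.19, Dhcr7 by -0.18 and Srebf2 by -0.12 on the log2 scale (edgeR, adjusted p = 0.0437, 0.0339 and 0.0462). None was called without blocks.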

How the results depend on the processing

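No call of the 28 genes changed direction in any alternative run. Of the 340 called results, RLE size factors kept 340, DESeq2 339, no filter on low counts 335, limma on the deposited log2 values 337, and the animal as a replicate block 322 of the 322 it applies to. Sex as a covariate kept 15 of 18 age calls. Leaving out 1 library in turn kept 2846 and ended 90. Those not given in the report were of Pmvk (D48h against D18h, without 4 young libraries or 1 old) and Tm7sf2 (without 5 old), and of Stard4 at A48h against A18h (without 4), with adjusted p of 0.0502 to 0.153. With the replicate block, doxycycline called 7 (young A18h), 6 (old A18h), 1 (D06h), 3 (D18h) and 12 (D48h) genes against 0 without it, and its difference between ages 3 against 0. Apart from these, the block added Tm7sf2 at young D06h against A18h, Pmvk and Insig2 at old D06h against A18h (adjusted p = 0.00356, 0.0260 and 0.0411) and the 4 genes given for A48h against A18h, and changed no other call. DESeq2 called 2 genes for doxycycline at D48h (0 by edgeR), 8 for age at A18h (5) and 5 for age at D06h (1). Without the filter age called 3 at A18h and 2 at D06h, and with sex as a covariate 2 at A18h. With 1 library left out, age called 0 to 13 genes at A18h, 0 to 4 at D06h and 0 to 3 at D48h (2 with all). The share of all genes called in those runs is not given. The causes of these changes were not tested. At 4 or 5 animals a group, standard errors bound what could be detected. For age they were 0.03 to 0.07 at D18h and reached 0.19 at A18h (Lss), 0.09 at D06h (Idi1 and Sqle) and 0.14 at D48h (Hmgcs1).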
